A study of Rattus norvegicus with 6 samples.

Results

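The mitotic kinesins are motor proteins that build the spindle, move chromosomes on it and divide the cell after chromosomes have parted. The 10 genes described here, Kif11, Kif15, Kif18a, Kif18b, Kif2c, Kif22, Kif4a, Kif20a, Kif20b and Kif23, were chosen by name. That choice was made with earlier results of these data known. Each gene was measured with every array probe whose accession maps to the rat RefSeq symbol, in renal cortex of rats given o-anisidine and of controls. A probe was found for 9 of the 10 genes, with 15 probes among them, and 14 of these probes were bright enough to keep. For Kif4a no probe was matched by accession, and it was not analysed here. The 9 measured genes are part of 31087 genes tested, of which 12015 had a matched symbol. The others had no matched symbol, and some of them may stand for the same gene. Shares, percentiles and ranks over all genes below include both kinds.

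The treated group was 3 male Sprague-Dawley rats, of the Crl:CD(SD) stock, dosed with o-anisidine hydrochloride at 700 mg/kg/day over 4 weeks. The control group, labelled VC, was 3 rats of the same stock and sex that received water over the same 4 weeks. All animals were bought at 5 weeks of age and kept on a basal diet with tap water. o-Anisidine is an aromatic amine, the comparison asked which renal cortex transcripts differ after repeated dosing, and each rat was measured on 1 single-colour Agilent array.

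On the arrays, 41670 to 43630 of 61657 probes were well above background and no spot was saturated. The 75th percentile of the signal lay between 923 and 1031. Markers of the proximal tubule, the main cell of the cortex, were present at a summed level of 1908 to 2255 times that percentile in o-anisidine cortex and 1971 to 2139 times in VC cortex. One slide held all 3 VC arrays and o-anisidine 3, and another slide held o-anisidine 1 and 2. Values within the shared slide are therefore given beside the pooled ones.

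Kinesins use the energy of ATP to walk along microtubules or to take them apart at their ends. The mitotic members are made mainly by dividing cells, and their transcripts build up toward mitosis and are scarce in resting tissue. In the adult kidney most tubule cells are resting, and division increases during repair after injury. In such bulk samples, more cells of a dividing kind and more RNA per cell cannot be told apart.

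Transcription of many mitotic genes is timed by promoter elements near the start site. In human and mouse cells the cell cycle genes homology region, written TTTGAA or in a variant form as TTTAAA, is bound by the MuvB core of the DREAM complex, and the box CCAAT is bound by NF-Y. The promoters of 4 members are shown because they span the data. Kif20a had the largest log2 change, and Kif15 was the member without a higher signal. Kif22 and Kif23 are among the members that carry both TTTGAA and CCAAT. Sequences are from RefSeq, assembly GRCr8, and run from 250 bases before to 50 bases from the annotated start, 5′ to 3′ on the gene's strand. Capitals mark TTTGAA, its variant TTTAAA, which reads alike on both strands, and the box CCAAT, on either strand. A match on the other strand therefore reads TTCAAA for the homology element or ATTGG for the box, and no marked matches overlap. The regions are chr18:26504172-26504471 on the plus strand for Kif20a, chr1:191080829-191081128 on the minus strand for Kif22, chr8:71320535-71320834 on the minus strand for Kif23 and chr8:131479154-131479453 on the plus strand for Kif15.
Kif20a: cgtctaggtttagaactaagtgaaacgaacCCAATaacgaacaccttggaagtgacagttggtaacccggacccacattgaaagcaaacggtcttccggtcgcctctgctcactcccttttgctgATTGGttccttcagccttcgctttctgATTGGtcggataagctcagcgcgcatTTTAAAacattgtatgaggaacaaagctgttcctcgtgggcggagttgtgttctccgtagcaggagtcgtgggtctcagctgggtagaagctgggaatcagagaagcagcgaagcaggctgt
Kif22: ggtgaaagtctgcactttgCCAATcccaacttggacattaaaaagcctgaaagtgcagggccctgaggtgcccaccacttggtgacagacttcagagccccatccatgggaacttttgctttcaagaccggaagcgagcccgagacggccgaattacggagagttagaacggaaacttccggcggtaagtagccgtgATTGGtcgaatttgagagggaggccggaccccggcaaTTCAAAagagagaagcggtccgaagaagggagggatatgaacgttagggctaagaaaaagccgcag
Kif23: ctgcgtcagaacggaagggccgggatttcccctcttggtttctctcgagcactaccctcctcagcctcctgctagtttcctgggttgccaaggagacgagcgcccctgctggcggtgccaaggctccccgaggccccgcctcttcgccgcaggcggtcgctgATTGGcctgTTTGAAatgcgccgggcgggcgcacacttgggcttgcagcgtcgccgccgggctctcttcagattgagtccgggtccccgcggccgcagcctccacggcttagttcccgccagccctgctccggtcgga
Kif15: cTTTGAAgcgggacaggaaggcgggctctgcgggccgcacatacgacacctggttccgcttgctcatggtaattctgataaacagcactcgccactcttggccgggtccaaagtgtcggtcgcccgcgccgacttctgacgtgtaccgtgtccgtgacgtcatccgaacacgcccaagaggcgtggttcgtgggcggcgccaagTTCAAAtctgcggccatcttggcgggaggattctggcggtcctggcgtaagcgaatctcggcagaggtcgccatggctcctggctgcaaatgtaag

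Kif20a carried 3 CCAAT boxes, the nearest to the start at -98 to -94, counted from the start's first base as 0, and TTTAAA at -72 to -67. In Kif23 a CCAAT box at -88 to -84 was followed by TTTGAA at -79 to -74. Kif22 held CCAAT boxes at -231 to -227 and -53 to -49 and TTTGAA at -16 to -11. Kif15 held TTTGAA at -249 to -244 and -46 to -41, and the letters CCAAT were not found in its window.

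All 10 members matched the promoter table, with 11 promoters because Kif2c has 2 entries. TTTGAA was found in 5 of the 11, against 18.3% of all 33469 promoters of the same length. CCAAT was found in 6 of the 11, against 37.5% of all, and TTTAAA in 3, against 13.6%. TTTGAA together with CCAAT was found in 4, those of Kif22, Kif4a, Kif20b and Kif23, against 7.41% of all. The windows of Kif18a and Kif18b held none of these motifs. The GC content of the member promoters had a median of 61%, against 51.67% over all promoters, and a match is a description of letters only.

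**Figure D1:**
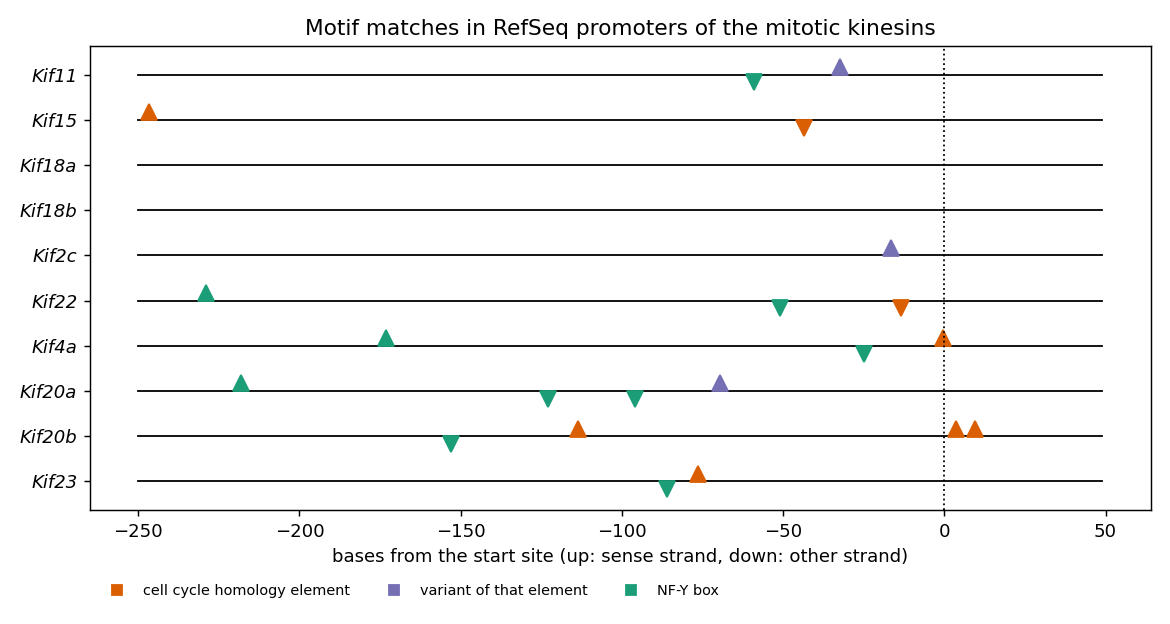
Matches to TTTGAA (cell cycle homology element), TTTAAA (variant of that element) and CCAAT (NF-Y box) in the RefSeq promoters of the 10 mitotic kinesins, by distance in bases from the start site. Triangles pointing up are on the gene's strand and those pointing down on the other strand; TTTAAA reads the same on both and is drawn up, the 2 entries of Kif2c share a line, and the lines of Kif18a and Kif18b are empty.

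Over the 9 measured kinesins, signals were higher in o-anisidine cortex than in VC cortex for 8, with log2 changes of 0.34 to 1.86, and Kif15 was the exception at -0.11. Of all genes tested, 50.9% had a log2 change above 0. The median log2 change was 0.92, which is 1.90-fold, against 0.00 over all genes tested. None of the 9 passed an adjusted p of 0.05 in either direction with limma's moderated test, against 0.0611% of all genes (0.0354% higher and 0.0257% lower). At an unadjusted p of 0.05, 8 of 9 were higher, against 6.36% of all genes, and 0 were lower, against 5.14%. In the same 8, all 3 o-anisidine arrays lay above all 3 VC arrays, against 9.55% of all genes, and in 0 they lay below, against 8.88%. A log2 change of 1 or more, that is at least 2-fold, was seen in 4 members, Kif20a, Kif2c, Kif22 and Kif18b, against 0.952% of all genes, or 0.766% when the groups also had to be apart. All 9 genes were well above background on every VC array as well, so none entered the test through the treated group alone. Levels below are log2 signals relative to the array's 75th percentile, so 0 is a spot as bright as that percentile, and they compare arrays for 1 probe but not different probes.

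**Figure D2:**
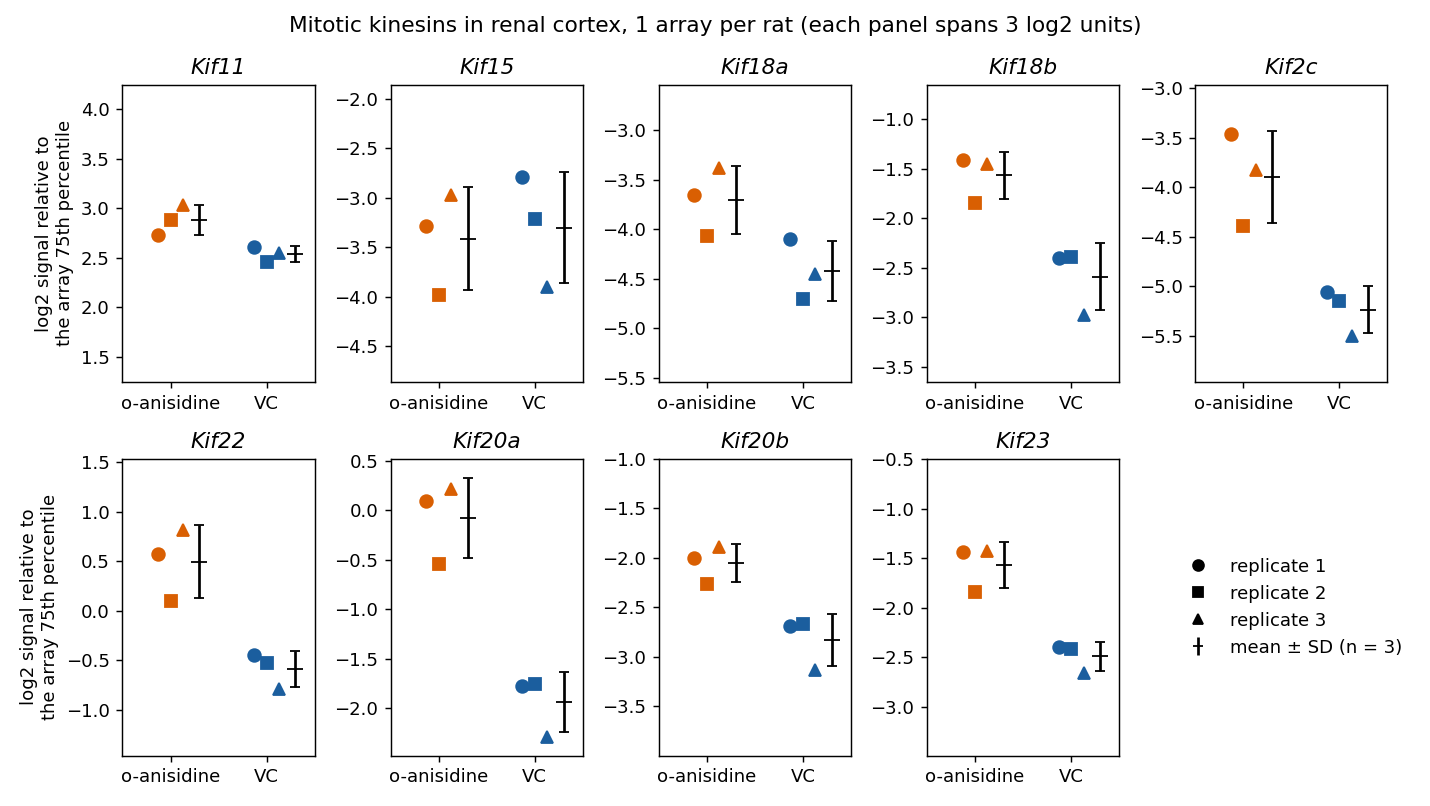
Log2 signal of each measured mitotic kinesin relative to the array's 75th percentile, 1 point per rat, o-anisidine left and VC right in each panel, with mean ± SD (n = 3 each); each panel spans 3 log2 units. In 8 panels the groups do not overlap, in Kif15 they do, and o-anisidine 2 is the lowest treated array in all panels but Kif11.

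Spindle assembly is the step of Kif11 and Kif15. Kif11, also called Eg5, slides antiparallel microtubules apart and sets up the bipolar spindle. Kif11 had log2 signals of 2.73, 2.88 and 3.04 on o-anisidine arrays 1, 2 and 3, against 2.61, 2.46 and 2.55 on VC arrays 1, 2 and 3. The groups did not overlap, although o-anisidine 1 exceeded VC 1 by little. Its log2 change was 0.34 (SE 0.10, adjusted p = 0.311), which is 1.27-fold. The 2 other Kif11 probes gave 0.38, again without overlap, and 0.33, with overlap between the groups.

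Kif15 can back up Kif11 in human cells, holding the spindle open when Kif11 is blocked. The log2 signal of its single probe was -3.28, -3.99 and -2.97 on the o-anisidine arrays, against -2.79, -3.21 and -3.91 on the VC arrays. The groups overlapped throughout, with the highest and the lowest values about as far apart within each group. The log2 change was -0.11 (SE 0.36, adjusted p = 0.929), and its 95% confidence interval spans 0.501-fold to 1.71-fold. Kif15 had the widest interval of the members. Within the slide that holds both groups its log2 change was 0.33, so even the sign of Kif15 was not settled by these arrays.

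Kif18a, Kif18b and Kif2c act on the ends of microtubules. Kif18a, which in human cells gathers at the plus ends of kinetochore microtubules and damps the swings of chromosomes at the metaphase plate, had log2 signals of -3.66, -4.07 and -3.39 on o-anisidine arrays, against -4.10, -4.71 and -4.45 on VC arrays. The groups did not overlap, but o-anisidine 2 lay next to VC 1. The log2 change was 0.72 (SE 0.22, adjusted p = 0.336), and with normexp background correction it was 0.35. Normexp was run with a constant of 50 added to every corrected signal, which by itself makes log2 changes of dim probes smaller. How much of the smaller normexp values here and below comes from that constant was not tested. The other Kif18a probe was not well above background on any array and gives no fold.

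Kif18b limits the length of astral microtubules, which reach from the spindle poles toward the cell cortex. Log2 signals of Kif18b were -1.41, -1.84 and -1.45 on the o-anisidine arrays, against -2.40, -2.39 and -2.98 on the VC arrays. The groups were clear of each other, with VC 3 the lowest array. Its log2 change was 1.02 (SE 0.20, adjusted p = 0.161), or 2.03-fold.

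Kif2c, also called MCAK, does not walk but takes microtubules apart at centromeres, where it helps to correct wrong attachments of chromosomes. Its brightest kept probe had log2 signals of -3.47, -4.40 and -3.83 on o-anisidine arrays, against -5.06, -5.15 and -5.51 on VC arrays. All treated arrays were higher, and the treated group spread more (SD 0.47, n = 3) than the VC group (SD 0.24, n = 3). The log2 change was 1.34 (SE 0.25, adjusted p = 0.149), or 2.53-fold, and another probe measured in both groups gave 1.35. With normexp background correction the log2 change of Kif2c was 0.61. The remaining Kif2c probe was well above background on all o-anisidine arrays and on 0 of 3 VC arrays. This probe was therefore kept through the treated group alone. With each VC signal set no lower than the dimmest signal well above background on its array, the fold came to 2.00. On VC 1 and VC 2 the probe read -5.92 and -5.98, above those floors of -6.19 and -6.07, yet was not well above background. The 2.00 is thus a rough figure and no strict bound.

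Kif22, also called Kid, is a chromokinesin: it binds DNA and pushes chromosome arms away from the spindle poles. It had log2 signals of 0.57, 0.09 and 0.82 on the o-anisidine arrays, against -0.44, -0.52 and -0.79 on the VC arrays. Here every treated array was above the percentile used for scaling and every VC array below it. The log2 change of Kif22 was 1.08 (SE 0.20, adjusted p = 0.148), or 2.12-fold, and its other probe gave 1.15. Kif4a, the chromokinesin that acts with Prc1 on overlapping microtubules, has no value here.

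Central spindle and cytokinesis is the step of Kif20a, Kif20b and Kif23. Kif20a, also called MKLP2, brings the chromosomal passenger complex, which holds Aurora B kinase, to the midzone after chromosomes part. Kif20a had log2 signals of 0.09, -0.54 and 0.22 on the o-anisidine arrays, against -1.77, -1.75 and -2.29 on VC arrays. The lowest treated array stood more than 1 log2 unit above the highest VC array. The log2 change of Kif20a was 1.86 (SE 0.24, adjusted p = 0.0993), or 3.64-fold with a 95% confidence interval of 2.41-fold to 5.50-fold. It was the largest among the members, and over all genes tested its log2 change was at the 99.8th percentile and its p ranked 66.

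Kif20b acts late in cytokinesis, when the bridge between daughter cells is cut. The log2 signal of Kif20b was -2.00, -2.26 and -1.89 on the o-anisidine arrays, against -2.69, -2.67 and -3.14 on the VC arrays. The groups did not overlap, and the log2 change was 0.78 (SE 0.16, adjusted p = 0.177), or 1.72-fold.

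Kif23, also called MKLP1, forms the centralspindlin complex with Racgap1 and bundles midzone microtubules. Kif23 gave log2 signals of -1.44, -1.84 and -1.43 on o-anisidine arrays, against -2.40, -2.42 and -2.66 on VC arrays. Its values were tight in both groups, with SDs of 0.24 in o-anisidine cortex and 0.14 in VC cortex (n = 3 each). The log2 change was 0.92 (SE 0.14, adjusted p = 0.115), or 1.90-fold, and after Kif20a this was the smallest adjusted p of the members.

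**Figure D3:**
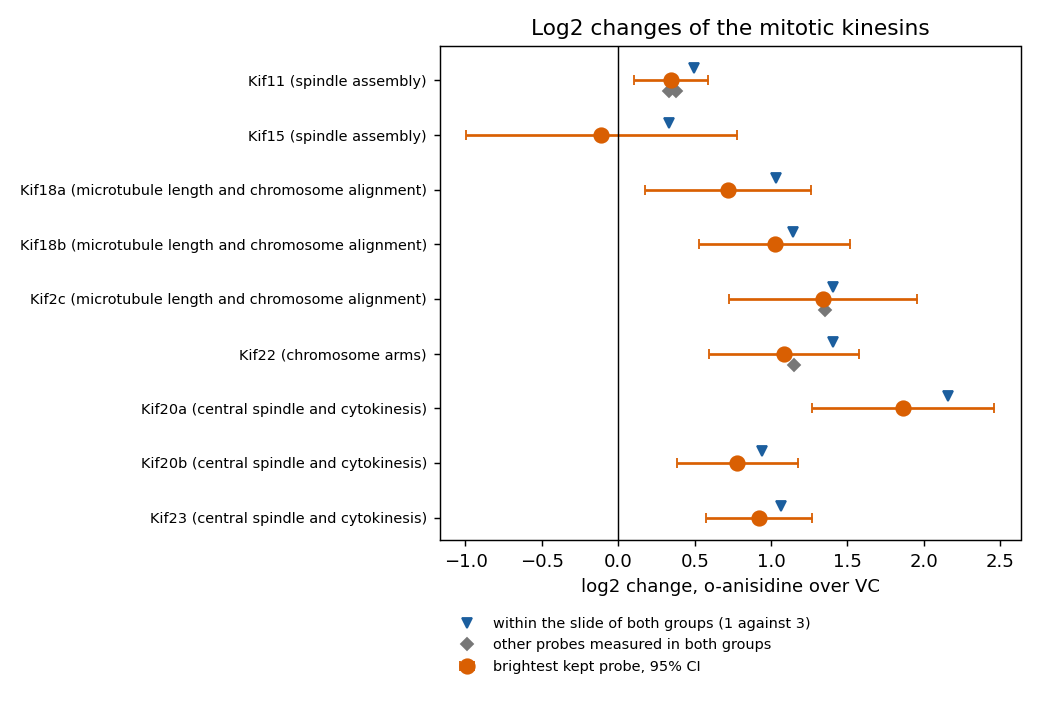
Log2 change of each measured mitotic kinesin, o-anisidine over VC, by step: large points are the brightest kept probe with its 95% confidence interval, diamonds other probes measured in both groups, and blue triangles the difference within the shared slide (1 array against 3). The interval of Kif15 alone spans 0, and within the shared slide all 9 values are above 0.

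By step, the central spindle members had log2 changes of 0.78 to 1.86, the members acting on microtubule ends 0.72 to 1.34, and the spindle assembly members -0.11 and 0.34. Differences between steps were not tested, and each step holds 1 to 3 measured genes. Within the shared slide, where o-anisidine 3 stands against the 3 VC arrays, log2 changes were 0.50 for Kif11, 0.33 for Kif15, 1.03 for Kif18a, 1.14 for Kif18b and 1.41 for Kif2c. On that slide Kif22 had 1.40, Kif20a 2.16, Kif20b 0.94 and Kif23 1.06. Every one of these values was above the pooled one. With other settings of the fit, 1 member (Kif20a) was called with a trend and robust variance model, against 0.293% of all genes higher, and 2 (Kif20a and Kif23) with normexp background correction, against 0.219%. With the slide as a block, adjusted p ran from 0.189 for Kif20a to 0.877 for Kif15.

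The treated arrays differed among themselves in a like way for most members. Each rat has 1 array, and o-anisidine 3 shared a slide with the VC arrays. Rat, array and slide therefore cannot be told apart here. o-Anisidine 2 was the lowest treated array for 8 of the 9 kinesins, Kif11 being the exception, and o-anisidine 3 was the highest for 7. Among controls VC 3 was the lowest for 7. Shares of all genes for these counts are not given here. Taking each gene's signal minus its VC mean, the median over the 9 kinesins was 1.05, 0.65 and 1.06 on the o-anisidine arrays, against 0.17, 0.09 and -0.27 on the VC arrays. The same median over all genes tested lay between -0.02 and 0.03 on each of the 6 arrays.

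**Figure D4:**
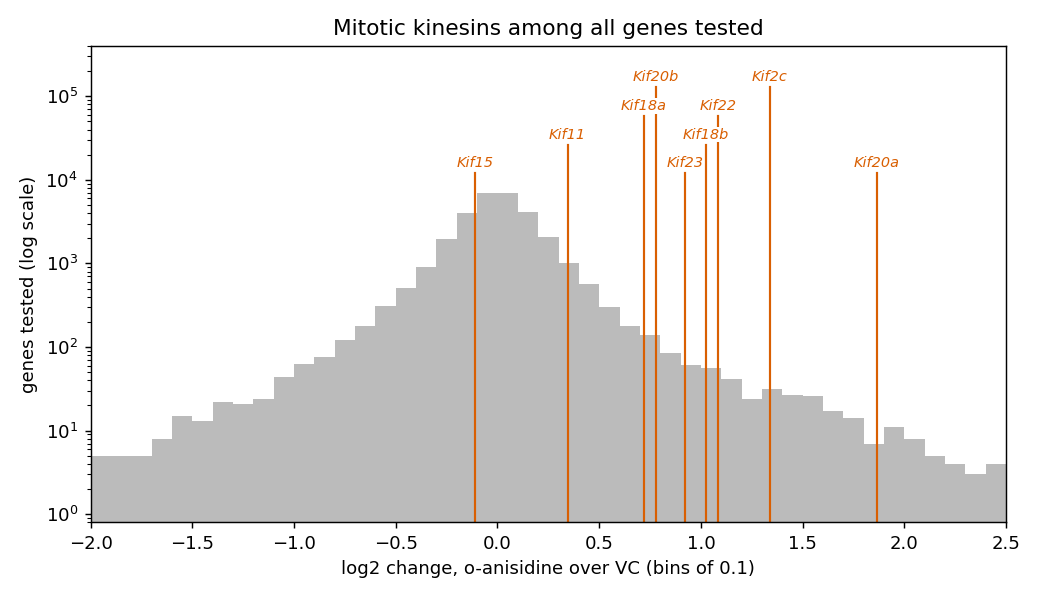
Histogram of log2 changes, o-anisidine over VC, of all 31087 genes tested (grey, bins of 0.1, log count axis, shown from -2 to 2.5), with an orange line at each mitotic kinesin. Kif20a lies farthest right at 1.86, 7 further members lie between 0.34 and 1.34, and Kif15 lies at -0.11 within the bulk.

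Other kinesins were measured in the same fit. Of 26 kinesins, most of which carry cargo or serve cilia, 15 were tested and 0 passed the adjusted threshold. Their median log2 change was -0.06. At an unadjusted p of 0.05, 0 were higher and 2 were lower, against 6.36% and 5.14% of all genes. In 1 the o-anisidine arrays lay above all VC arrays and in 2 below them, against 9.55% and 8.88% of all genes, so these counts were near the background. The largest positive values were 0.18 for Kif3c, a motor of axonal transport, and 0.17 for Kif12, and the largest negative ones were -0.44 for Kif7 (SE 0.13, adjusted p = 0.301) and -0.35 for Kif27. Kif7 tunes Hedgehog signalling at the tip of the cilium, and on its brightest kept probe the groups did not overlap. With the mean of all kept probes, Kif3c, Kif12, Kif7 and Kif27 had 0.18, 0.14, -0.26 and -0.35 in that order. Among 5 further kinesins of cell division only Kifc1, a minus-end motor that focuses spindle poles, was tested, and its log2 change was -0.10 (SE 0.13, adjusted p = 0.808).

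Partners and kinases that load, bind or switch the mitotic kinesins were mostly higher in o-anisidine cortex as well. Of 22 genes, 19 were tested, 0 passed the adjusted threshold, and 13 were higher without overlap between groups, against 9.55% of all genes. The median log2 change was 0.90, and 9 genes were at least 2-fold higher, against 0.952% of all genes. The median and the counts of 13 and 9 include Hmmr and Aurkb, which could enter only through the treated group. Aurkb, the gene of Aurora B, was well above background on 2 of 3 VC arrays. Cdk1, the main mitotic kinase, which phosphorylates Kif11 for its binding to the spindle, had log2 signals of 2.01, 1.45 and 2.19 on o-anisidine arrays, against 0.49, 0.53 and 0.11 on VC arrays. As in the kinesins, o-anisidine 2 was the lowest treated array. Hmmr, a spindle protein, was well above background on only 1 of 3 VC arrays, and its log2 change of 2.32 (SE 0.68, adjusted p = 0.315) was 1.53 without VC 1 and 0.67 with normexp.

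Racgap1 and Prc1 were chosen after their values were seen, and in both the groups did not overlap, whereas in Kifbp, Incenp and Cit, at log2 changes of 0.04, 0.30 and 0.18, they overlapped. Racgap1, the partner of Kif23 in centralspindlin, had log2 signals of -1.41, -1.42 and -1.37 on o-anisidine arrays, against -2.23, -2.18 and -2.51 on VC arrays, a log2 change of 0.90 (SE 0.10, adjusted p = 0.0891). Prc1, which binds the midzone overlap that Kif4a and Kif20a work on, had -0.56, -1.18 and -0.45 on o-anisidine arrays, against -2.05, -2.12 and -2.32 on VC arrays. Nek7 and Nek9, kinases upstream of Kif11 in human cells, had the lowest values of the list at -0.08 and -0.07, with overlapping groups. Nek6, on the same list, had 0.42 (SE 0.22, adjusted p = 0.526), also with overlapping groups.

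Tubulins and regulators of transcription had medians nearer to 0. Of 16 tubulins and microtubule regulators tested, 0 passed the threshold, 5 were higher and 1 was lower without overlap, against 9.55% and 8.88% of all genes, and the median log2 change was 0.09. Stmn1, which binds free tubulin, had 0.32 and Tuba1c, an alpha tubulin, 0.30. Tubb3 had -0.30 and Mapre1, a protein of growing plus ends, -0.21. With the mean of all kept probes, Stmn1, Tuba1c, Tubb3 and Mapre1 had 0.24, 0.29, -0.31 and -0.07 in that order. Of 16 regulators of transcription in G2 and mitosis tested, 0 passed, 2 were higher and 1 lower without overlap, near the 9.55% and 8.88% of all genes, and the median was 0.08. The largest were E2f1 at 0.52 (SE 0.17, adjusted p = 0.360) and Foxm1, an activator of mitotic genes, at 0.46 (SE 0.15, adjusted p = 0.362), and the lowest were Tfdp1 at -0.17 and Lin37 at -0.11.

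S-phase genes copy the DNA before mitosis. Of 15 tested, 0 passed the adjusted threshold, 4 were higher without overlap, against 9.55% of all genes, and the median log2 change was 0.22. Rrm2, a subunit of the enzyme that makes deoxynucleotides, had 1.41 (SE 0.38, adjusted p = 0.280), and Cdc6, which licenses replication origins, had 0.83 (SE 0.09, adjusted p = 0.0888). Pola1, a subunit of the polymerase that starts new strands, had the only negative value of the list, -0.06. Differences between these lists and the kinesins were not tested.

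**Figure D5:**
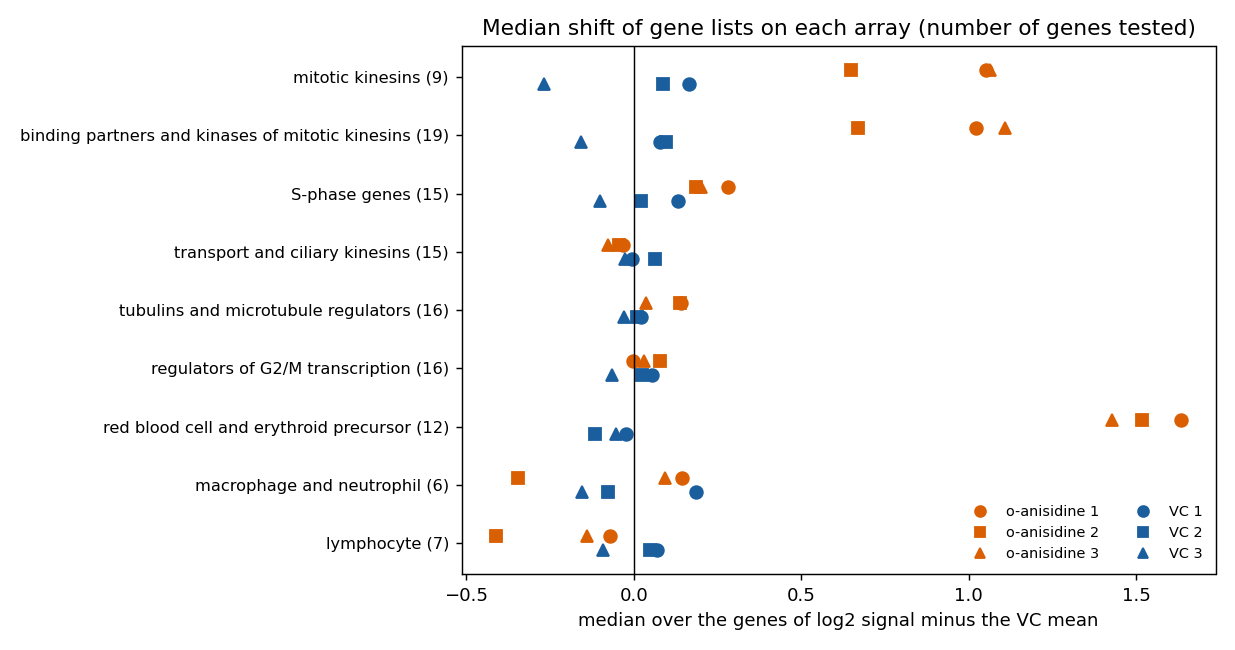
Median over each list's tested genes of the log2 signal minus the gene's VC mean, 1 point per array, o-anisidine in orange above VC in blue, with the number of genes tested in brackets. The mitotic kinesins and their partners sit at 0.65 or more on the o-anisidine arrays with o-anisidine 2 lowest, and erythroid markers sit at 1.43 to 1.64 with o-anisidine 3 lowest.

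The 5 named genes whose profile over the 6 arrays was most like the mean of the 9 kinesins, by Pearson correlation, were Aurka, Spag5, Ckap2, Plk1 and Spc25. The search took genes with an SD of at least 0.25, and r was 1.00 for Aurka, 0.997 for Spag5 and 0.994 for each of the other genes, over 6 points that share the same 2 groups. Their log2 changes were 0.90, 1.36, 1.55, 1.27 and 1.34 in that order. Values above 0 follow from the choice, since the profile they were matched to is higher on the o-anisidine arrays. Aurka and Plk1 are also counted in the list of partners and kinases above. Aurka and Plk1 are mitotic kinases, Spag5 and Ckap2 are spindle proteins, and Spc25 is part of the kinetochore.

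Markers of red cells and of their dividing precursors also differed between the groups. Of 14 red cell and erythroid precursor markers, 12 were tested, and 4 rose past the adjusted threshold, Ahsp, Hemgn, Rhd and Kel, against 0.0354% of all genes. In 11 of 12 the o-anisidine arrays lay above all VC arrays, against 9.55% of all genes, and the median log2 change was 1.46. Rhag, well above background on 0 of 3 VC arrays, could enter only through the treated group, and without it the count was 10 of 11 and the median 1.60. The summed level of the 12 markers was 1502 to 1866 times the 75th percentile in o-anisidine cortex, against 732 to 1009 times in VC cortex. Most of these sums came from the globin genes Hba-a1, Hbb and Hbb-b1. No tested marker was at 0, and Gata1 was not bright enough to test. On the o-anisidine arrays the median shift of the erythroid markers was 1.64, 1.52 and 1.43, against 1.05, 0.65 and 1.06 for the kinesins. The part of erythroid cells in the kinesin values was not tested.

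Marker lists of other cells had median log2 changes from -0.34 to 0.03. Of 9 macrophage and neutrophil markers 6 were tested, with a median log2 change of -0.06. Their summed level was 74.1 to 102.6 in o-anisidine cortex, against 90.3 to 103.1 in VC cortex. Most of these sums came from Lyz2, whose log2 change was -0.09. S100a8 and S100a9, proteins of neutrophils, stood apart in that list at 1.36 (adjusted p = 0.155) and 1.37 (adjusted p = 0.115). They were the 2 of 6 higher at an unadjusted p of 0.05, against 6.36% of all genes. In both, the groups did not overlap, against 9.55% of all genes higher. Both were also at least 2-fold higher, against 0.952%. Of 9 lymphocyte markers 7 were tested, with a median of -0.20. Their summed level was 1.35 to 1.90 in o-anisidine cortex, against 1.76 to 2.03 in VC cortex, and Ptprc made up most of it. Median log2 changes were 0.03 for proximal tubule, 0.00 for thick ascending limb and distal tubule, -0.34 for collecting duct, -0.08 for podocyte, -0.06 for endothelium and -0.29 for fibroblast markers. Of 5 collecting duct markers tested, 3 were lower at an unadjusted p of 0.05, against 5.14% of all genes. In 2 of the 5 the groups did not overlap, against 8.88% lower over all genes. Of the markers of all these other cells 0 passed the adjusted threshold, and the part of these cells in the kinesin values was not tested.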

How the data were processed

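Total RNA from renal cortex of 6 rats was hybridised to single-colour arrays, and groups came from the sample titles. Per the file headers, the deposited spot intensity is the signal after background subtraction by Agilent Feature Extraction 10.7.1.1 (10.7 per the submitters' processing notes), on a design annotated on rn4.

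Values were log2 intensity minus the array's 75th percentile over 61657 probes. Kept were 42036 probes that cleared background well in every array of o-anisidine, of VC or of both, after 16 outlier probes were removed. The files hold no symbols, so accessions were matched to the RefSeq table of GRCr8 (27460 probes, 15284 symbols), used for names only on the arrays. The brightest kept probe stood for a gene. Groups were compared with limma 3.58.1 in R 4.3.3 (two-sided, no covariates, Benjamini-Hochberg over 31087 genes, threshold 0.05), which was tested on simulated data. Arrays have 3 values a group, which limits precision.

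Members, lists and tests were chosen with earlier results of these data known. Named list genes are the 2 largest positive and 2 largest negative log2 changes of a list (1 each under 6 tested). Racgap1, Prc1, Kifbp, Incenp, Cit, Aurkb, Nek6 and the named markers were chosen after their values were seen.

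The authors' deposited table of scaled intensity was found by comparison to be the processed signal divided by the array's 75th percentile, linear and not centred, with column medians of 0.104 to 0.108. Its columns match the scanner files of another replicate in the same group (r = 1.00, against 0.991 to 0.993 for its own), so replicate numbers follow the scanner files and the right numbering is unknown. Normexp used an offset of 50 and the median signal, since the planned mean signal is not in the columns used here. Alternatives are listed in the closing section. Same-numbered rats did not deviate together (r = 0.02, 0.077 and 0.012), so numbers were not taken as pairs.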

Additional observations from a re-analysis of the deposited data

How the results depend on the processing

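All members but Kif15 kept a log2 change above 0 in all 18 alternatives, with Kif20a at 1.60 to 2.16, Kif2c at 0.61 to 1.59 and Kif18a at 0.35 to 1.03. The 18 are not separate checks. The variance model and the replicate block cannot move a log2 change, and the other filters on dim probes left the members' values the same. The slide block and the shared slide give 1 and the same value by design. Kif15 turned to 0.33 with the slide as a block and within the slide, 0.15 without VC 1 and 0.18 without o-anisidine 2, and leaving out 1 rat moved it between -0.41 and 0.18. The 11 higher and 8 lower genes reported became 68 and 18 with normexp, 91 and 29 with a trend and robust variance model, 2 and 1 with the slide as a block, and 1 and 1 within the slide. They were 5 higher with no filter on dim probes, 5 lower with probes well above background on all 6 arrays, and 19 higher with every kept probe tested. With the replicate number as a block, 1 was higher and 0 lower, and the block changed no call of a member. Leaving out 1 rat gave 2 to 16 higher and 1 to 5 lower, and a kinesin median of 0.83 to 1.06. With normexp 2 kinesins were called, Kif20a (adjusted p = 0.0356) and Kif23 (adjusted p = 0.0489), and the median was 0.61; with trend and robust variance 1 was, Kif20a (adjusted p = 0.0430). Over the alternatives the adjusted p ran from 0.0356 to 0.269 for Kif20a and from 0.0489 to 0.298 for Kif23. Among list genes, Nek7 turned to 0.048 with normexp and ranged from -0.19 to 0.037 when 1 rat was left out, with 0.037 without o-anisidine 3. In the same settings Pola1 was 0.11, and ranged from -0.17 to 0.15. Kif3c turned to -0.077 with the slide as a block and within the slide, Nek9 to 0.038 with the mean of probes, and Kifc1 to 0.022 without o-anisidine 2, in a range of -0.19 to 0.022. The cause of these shifts was not tested. The number of arrays, 3 a group, limits the precision. A signal not well above background left 1 Kif18a probe with no fold and 1 Kif2c probe with a rough fold only.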
